A study of Homo sapiens with 4 samples.

Results

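The clustered protocadherins, PCDHA, PCDHB and PCDHG, were followed across the C4-2 and LNCaP libraries of a total RNA sequencing study of prostate cancer cells. Their members were all rows of the deposited tables whose RefSeq accession mapped to a symbol beginning with PCDHA, PCDHB or PCDHG on chromosome 5. This gave 57 genes in 99 rows, out of 22985 named genes in 41351 rows. PCDHA held 15 genes at chr5:140165876-140391929 (hg19), PCDHB held 19 genes at chr5:140430979-140627801, and PCDHG held 23 genes at chr5:140710252-140892548, with 4 pseudogenes among them (PCDHB17P, PCDHB18P, PCDHB19P and PCDHGB8P). C4-2, labelled as castration-resistant prostate cancer (CRPC), is a line derived from LNCaP through growth in castrated mice, and LNCaP, labelled as primary prostate cancer (Primary PC), is an androgen-sensitive line from a lymph node metastasis. Both lines grew in medium with charcoal-stripped, steroid-depleted serum, and each gave 2 libraries from rRNA-depleted total RNA. Nothing in the labels tells if both libraries of a line stem from separate flasks, so p-values measure only the spread between libraries, which may be technical. The stored names of the tables give the other line than the sample titles do. Groups follow the titles, and every direction below would turn round if the stored names were the right ones.

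Clustered protocadherins are cadherin-like cell-surface proteins. Each gene starts at its own promoter, and neurons use different small sets of them, so that cells carry different combinations and recognise their own processes by binding between like molecules. In PCDHA and PCDHG, every variable first exon encodes an extracellular part and is spliced to the same last exons, which encode a common intracellular part. PCDHB genes consist of a single coding exon each and share no exon. Most of these promoters carry a short conserved element with a CGCT core, near which the insulator protein CTCF binds, and DNA methylation is known to keep clustered protocadherin promoters silent.

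Sequence tags on the transcript strand of the named genes numbered 163126630 and 119080520 in the C4-2 libraries, and 58925680 and 70459588 in the LNCaP libraries. They were 67.7% and 69.4% of the library totals that the deposited RPKM values imply in C4-2, against 31.0% and 35.7% in LNCaP. Scaling to those totals moved the median log2 fold change of all genes to 0.99 from -0.01 with TMM scaling, and the share of called genes that were higher in C4-2 to 86.8% from 50.3%. Levels below are CPM, tags per 1000000 sense tags of a library after TMM scaling. The luminal prostate markers KLK3, KLK2 and KRT8 each stood above 1 CPM in all 4 libraries. In RNA from many cells, fewer expressing cells and less RNA per cell cannot be told apart.

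The PCDHB cluster was almost silent in LNCaP and broadly transcribed in C4-2. Its 19 genes together held 14757 and 10733 tags in C4-2 (91.9 and 91.0 CPM), against 163 and 232 tags in LNCaP (2.71 and 3.28 CPM). Of the 18 genes that passed the filter on low counts, all 18 rose in C4-2 by edgeR's quasi-likelihood test with Benjamini-Hochberg adjustment over all genes (adjusted p below the 0.05 threshold). Of all 15975 genes tested, 80.0% were called, 40.2% as higher in C4-2, and 89.9% had C4-2 and LNCaP values that did not overlap. The median log2 fold change of the 18 was 4.57, beside -0.01 over all genes tested. Genes with few LNCaP tags, such as PCDHB11 and PCDHB12 with 2 and 2 each, could pass the filter only through C4-2. The count of 18 out of 18 was thus partly set by the filter, and without it 19 were tested and 18 were higher. The remaining gene, PCDHB1, which stands apart from the others at the start of the cluster, had 4 and 4 tags in C4-2 and 2 and 8 tags in LNCaP and was not tested.

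**Figure D1:**
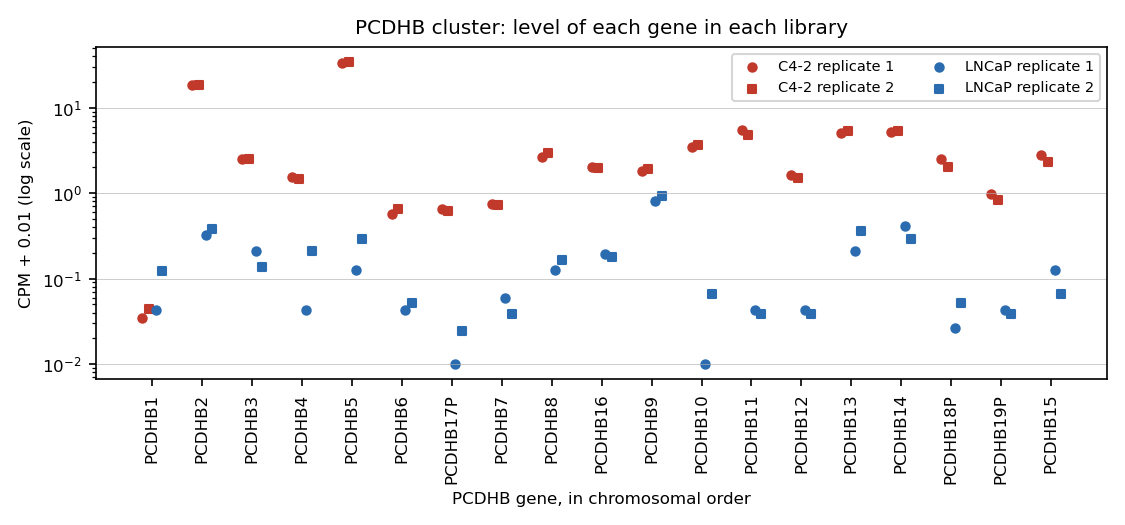
Level of each PCDHB gene in CPM plus 0.01 on a log axis, with genes in chromosomal order, C4-2 libraries in red and LNCaP libraries in blue (circles replicate 1, squares replicate 2). PCDHB5 and PCDHB2 reach the highest C4-2 levels, and PCDHB1 is the only gene whose red and blue points overlap.

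PCDHB5 and PCDHB2 carried most of the C4-2 signal. PCDHB5 (NM_015669, chr5:140514800-140517704 in hg19) had 5427 and 4033 tags in the C4-2 libraries, against 7 and 20 tags in the LNCaP libraries. Its level was 34.0 ± 0.287 CPM in C4-2 and 0.200 ± 0.117 CPM in LNCaP (SD, n = 2 each), a log2 fold change of 7.36 ± 0.16 (SE, edgeR adjusted p = 1.31e-08), and 8.18 without LNCaP replicate 2. PCDHB2 (chr5:140474237-140476964) had 2966 and 2159 tags in C4-2, against 19 and 26 tags in LNCaP, a log2 fold change of 5.74 ± 0.12 (edgeR adjusted p = 9.63e-09). Both genes were high in both C4-2 libraries and low in both LNCaP libraries, with no overlap. By length-normalised RPKM, used only to rank genes within a library, PCDHB5 made up 37.9% and 38.7% of the cluster's summed RPKM in C4-2, against 5.06% and 9.92% in LNCaP. PCDHB2 made up 22.0% and 22.0% in C4-2, against 14.4% and 13.6% in LNCaP. In LNCaP the largest share was that of PCDHB9, at 23.3% and 21.8%, against 1.41% and 1.49% in C4-2.

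PCDHB10, PCDHB11, PCDHB12 and the 3 PCDHB pseudogenes were among the rows with 4 tags or fewer in each LNCaP library. PCDHB11 had 886 and 568 tags in C4-2, against 2 and 2 tags in LNCaP (log2 fold change 7.35 ± 0.27). PCDHB10 had 559 and 436 tags in C4-2, against 0 and 4 tags in LNCaP (6.82 ± 0.39, and 5.97 without LNCaP replicate 1). PCDHB12 had 261 and 176 tags in C4-2, against 2 and 2 tags in LNCaP (5.62 ± 0.35). These 3 genes are neighbours, and all were near or at 0 in LNCaP. The pseudogene PCDHB18P had 398 and 238 tags in C4-2, against 1 and 3 tags in LNCaP (6.15 ± 0.37, and 6.99 without LNCaP replicate 2). The pseudogene PCDHB19P had 155 and 98 tags in C4-2, against 2 and 2 tags in LNCaP (4.83 ± 0.41). For the pseudogene PCDHB17P, with 103 and 72 tags in C4-2 and 0 and 1 tags in LNCaP, the ratio of tags after scaling was 82.2 (exact 95% interval of the counts 14.6 to 3265). So the pseudogene rows, which encode no intact protein, held more tags in C4-2, as did the tested coding genes. Of their 50-base stretches, 20.9% (PCDHB17P), 9.37% (PCDHB18P) and 2.84% (PCDHB19P) occur in another member row, 319 of those of PCDHB17P in PCDHB11. The part of tags from coding genes in the pseudogene rows was not tested.

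The other 10 tested PCDHB genes rose as well, from the smallest change of the cluster upwards. PCDHB9 had 294 and 226 tags in C4-2, against 48 and 64 tags in LNCaP, a log2 fold change of 1.13 ± 0.17 (edgeR adjusted p = 3.74e-04). It had the highest LNCaP level of the cluster, 0.852 ± 0.0744 CPM, against 1.87 ± 0.0606 CPM in C4-2. The PCDHB9 row also held 69 and 77 antisense tags in LNCaP, more than its sense tags there, and 102 and 110 in C4-2. PCDHB16 followed at 3.49 ± 0.23, PCDHB4 at 3.60 ± 0.41, PCDHB6 at 3.91 ± 0.43, PCDHB3 at 3.94 ± 0.24 and PCDHB14 at 3.97 ± 0.18 in log2 fold change. PCDHB13 stood at 4.19 ± 0.20, PCDHB7 at 4.21 ± 0.41, PCDHB8 at 4.32 ± 0.23 and PCDHB15 at 4.91 ± 0.30. PCDHB4 rested on few LNCaP tags that differed between libraries, 2 and 14, against 246 and 170 in C4-2, and its log2 fold change was 2.91 without LNCaP replicate 1 and 5.44 without LNCaP replicate 2. Rows of this cluster are alike in sequence: 45.5% of the 50-base stretches of the PCDHB8 row occur in another member row, 857 of them in PCDHB13, and 31.9% of those of PCDHB10, 781 of them in PCDHB9. How the authors' alignment split tags between such copies is not given in the sources used here, so the values of close pairs are less certain than the sum of the cluster.

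The PCDHB promoters share the conserved element, and it is shown here because genes with very different levels carry nearly the same letters. Sequences are from RefSeq (GRCh38.p14), which had a window of 250 bases before to 50 bases after the start for 47 of the 57 members. The word GGTGGCGCT, chosen after looking at these promoters, was found on either strand in the windows of 13 of 14 PCDHB genes and in 0.501% of all 35116 windows. Capitals mark the CGCT core in the 40 bases around it, plus strand, with the genes in falling order of C4-2 level per length.
PCDHB5, chr5:141135177-141135216: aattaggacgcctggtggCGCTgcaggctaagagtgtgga
PCDHB2, chr5:141094542-141094581: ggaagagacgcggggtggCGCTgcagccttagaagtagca
PCDHB14, chr5:141223261-141223300: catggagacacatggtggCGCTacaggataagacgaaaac
PCDHB13, chr5:141213863-141213902: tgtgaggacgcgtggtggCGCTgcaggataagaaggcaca
PCDHB9, chr5:141187072-141187111: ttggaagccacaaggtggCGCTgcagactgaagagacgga
PCDHB7, chr5:141172564-141172603: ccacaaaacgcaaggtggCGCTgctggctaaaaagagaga
The strongly raised PCDHB5 and PCDHB2 and the weakly raised PCDHB9 all held the full word. PCDHB1, the untested gene, was the 1 PCDHB gene with a window but without the word, although its window held CGCT itself, as did 70.0% of all windows. The core lay at a median of 61 bases before the annotated start in the 13 PCDHB genes. A match describes letters only and does not show that a factor binds there.

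The PCDHA cluster was low in both lines, and its common last exons rose in C4-2. Rows of PCDHA transcripts that run to the end of the cluster count the tags of these exons again for every gene. The tags left after taking the variable exon from the full-length row, as the median over 14 genes, were 462 and 363 in C4-2, against 2 and 17 in LNCaP. Both C4-2 libraries were far above both LNCaP libraries, which differed from each other. They made up 98.5% and 97.8% of the tags of the median full-length row in C4-2, so these rows describe the common exons more than the gene they are named after. All 15 PCDHA genes passed the test as higher by such rows (log2 fold changes 4.09 to 4.99), which is 1 measurement seen 15 times. Entered as a single feature, the common exons had 2.98 ± 0.144 CPM in C4-2 and 0.137 ± 0.146 CPM in LNCaP (SD, n = 2 each), a log2 fold change of 4.35 ± 0.38 (edgeR adjusted p = 1.32e-05). That value was 3.63 without LNCaP replicate 1 and 6.44 without LNCaP replicate 2.

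Single PCDHA genes were measured by rows that hold the variable exon without the common exons. Of 15 genes, 6 passed the filter and 5 rose, beside 79.9% of 15965 genes called and 40.2% called as higher in that table, and the median log2 fold change of the 6 was 3.90, beside -0.01 over all genes. A gene so low in LNCaP could pass the filter only through C4-2, so this count says little about the cluster. PCDHAC2, the last variable exon of the cluster, which in mice serves the spacing of serotonergic axons, had 435 and 285 tags in C4-2, against 0 and 4 tags in LNCaP. Its level was 2.56 ± 0.205 CPM in C4-2 and 0.0282 ± 0.0399 CPM in LNCaP (SD, n = 2 each), a log2 fold change of 6.34 ± 0.43 (edgeR adjusted p = 2.80e-06), and 5.49 without LNCaP replicate 1. It held 68.0% and 64.2% of the summed RPKM of PCDHA variable-exon rows in C4-2, so 1 isoform dominated the cluster there. In LNCaP it held 0% and 13.8%, on totals of 48 and 55 tags for the whole cluster. Of these tags, 36 and 43 lay on the short row of PCDHA9, which runs on into the intron. That row held 58.8% and 58.6% of the summed RPKM in LNCaP, so the LNCaP shares say little about the variable exons.

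**Figure D2:**
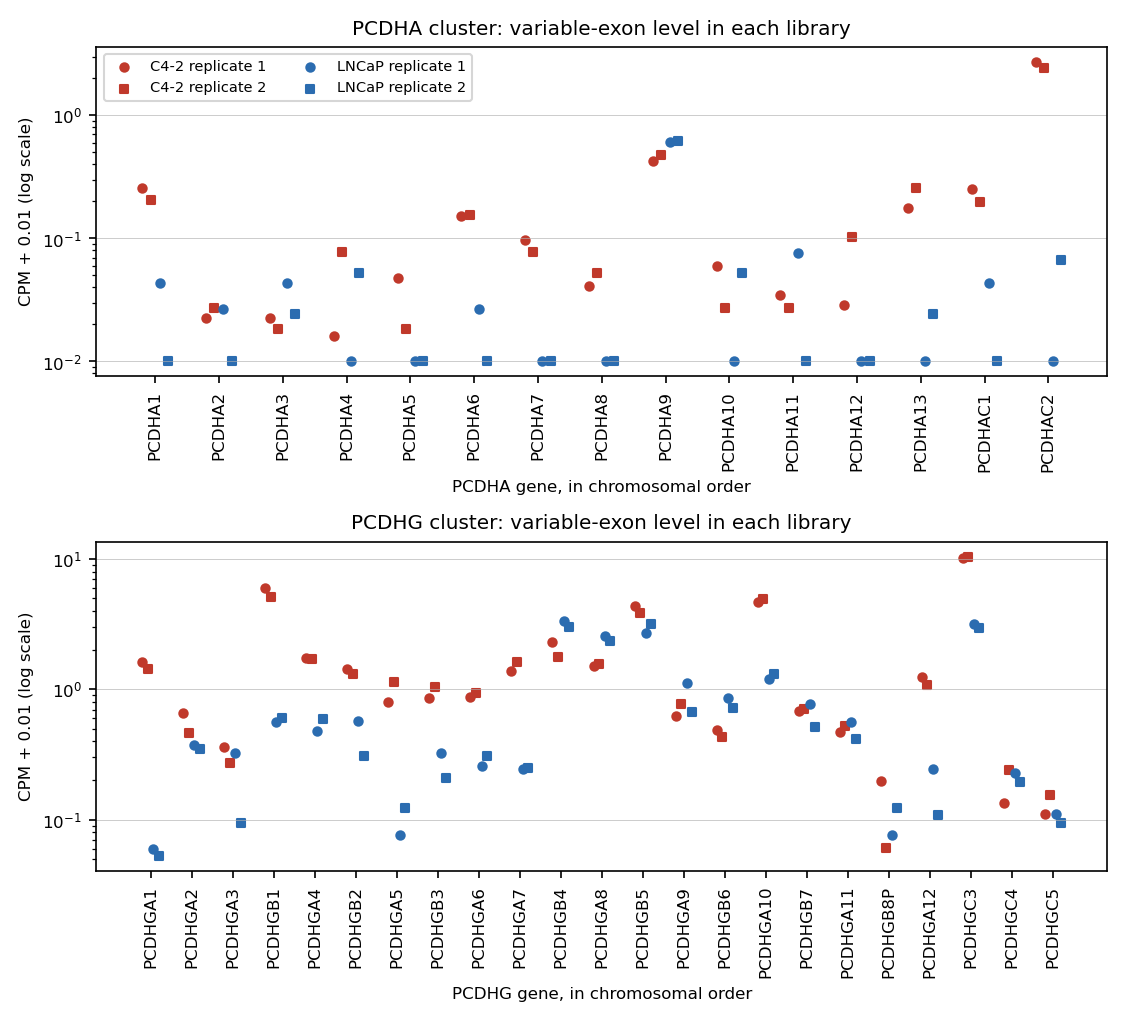
Variable-exon level of each PCDHA gene (upper panel) and PCDHG gene (lower panel) in CPM plus 0.01 on a log axis, in chromosomal order, with C4-2 libraries in red and LNCaP libraries in blue (circles replicate 1, squares replicate 2). PCDHAC2 stands above all other PCDHA genes in C4-2, while PCDHGC3 is the highest PCDHG gene in C4-2 and PCDHGB4, PCDHGA8 and PCDHGB6 have blue points above red ones, a direction that turns round with scaling to library totals.

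The other 4 PCDHA genes that rose had 1 or 2 tags in LNCaP over both libraries, and their ratios are given with the interval that counting alone allows. PCDHA1, the first gene of the cluster, had 40 and 23 tags in C4-2, against 2 and 0 in LNCaP, a scaled ratio of 14.8 (exact 95% interval 3.94 to 125). PCDHAC1 had 39 and 22 tags in C4-2, against 2 and 0 in LNCaP, a ratio of 14.3 (3.81 to 121). Both were low but present in each C4-2 library. PCDHA6 had 23 and 17 tags in C4-2, against 1 and 0 in LNCaP, a ratio of 18.8 (3.19 to 762). Of the 50-base stretches of the PCDHA6 row, 34.1% occur in another member row, 636 of them in PCDHA8, which the interval does not cover. PCDHA13 had 27 and 29 tags in C4-2, against 0 and 1 in LNCaP, a ratio of 26.3 (4.54 to 1059). PCDHA6 had the adjusted p closest to the threshold of these, 0.00344, and without C4-2 replicate 2 it no longer passed the filter.

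PCDHA9 was the 1 tested PCDHA gene that did not pass. Its short row had 67 and 55 tags in C4-2, against 36 and 43 tags in LNCaP, a log2 fold change of -0.45 ± 0.24 (edgeR adjusted p = 0.119), and 0.55 with scaling to library totals. This row is 6388 bases long and runs on into the intron, and nearly all of its tags lie there: the full-length row of PCDHA9, with the variable exon and the common exons, held 465 and 367 tags in C4-2 and 2 and 17 tags in LNCaP, close to the common exons alone. The remaining 9 PCDHA genes were not tested. PCDHA5, PCDHA7, PCDHA8 and PCDHA12 had no tag in LNCaP, and up to 14 in a C4-2 library. PCDHA7, with 14 and 8 tags in C4-2, was at least 3.45-fold higher in C4-2 than the limit of 3 tags over the LNCaP group. Of the 50-base stretches of the PCDHA7 row, 32.1% occur in another member row, 680 of them in PCDHA9. PCDHA2, PCDHA3, PCDHA4, PCDHA10 and PCDHA11 had 1 to 8 tags in each C4-2 library and 0 to 4 in each LNCaP library, levels at which a difference was not detectable at this depth.

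The alpha promoters carry their own form of the element, shown for genes on both sides of the filter. The word GATGTCGCT, also chosen after looking at the promoters, was found in 9 of 13 PCDHA genes with a window, and in 0.105% of all windows. Capitals mark the CGCT core in 40 bases of the plus strand (GRCh38.p14).
PCDHA1, chr5:140786084-140786123: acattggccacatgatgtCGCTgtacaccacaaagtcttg
PCDHA6, chr5:140827895-140827934: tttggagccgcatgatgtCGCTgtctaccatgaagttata
PCDHA7, chr5:140834170-140834209: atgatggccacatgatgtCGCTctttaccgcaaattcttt
PCDHA12, chr5:140875242-140875281: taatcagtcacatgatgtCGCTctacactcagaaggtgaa
The raised PCDHA1 and PCDHA6 and the untested PCDHA7 and PCDHA12 held the same word. PCDHAC2, which had the highest level, lacked it, as did PCDHAC1, PCDHA9 and PCDHA11. These are statements about letters in the window and not about binding.

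The PCDHG cluster was transcribed in both lines, and its genes did not move as a block. Its common last exons had 2452 and 1702 tags in C4-2, against 163 and 140 tags in LNCaP. Their level was 14.9 ± 0.583 CPM in C4-2 and 2.34 ± 0.520 CPM in LNCaP (SD, n = 2 each), a log2 fold change of 2.68 ± 0.13 (edgeR adjusted p = 4.85e-07). By full-length rows, which repeat those tags, all 22 PCDHG genes with such a row rose, with log2 fold changes from 1.62 to 2.81. The pseudogene PCDHGB8P has no full-length row. By variable-exon rows, 22 of the 23 genes passed the filter, of which 12 rose, 3 fell (all 3 positive with scaling to library totals) and 7 did not pass the test. The median log2 fold change of the 22 was 1.18, beside -0.01 over all genes tested, and 40.2% and 39.7% of all genes were called as higher and lower. The same 12 and 3 counts were found with DESeq2 size factors, whereas with scaling to library totals 19 PCDHG genes were called, all as higher.

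**Figure D3:**
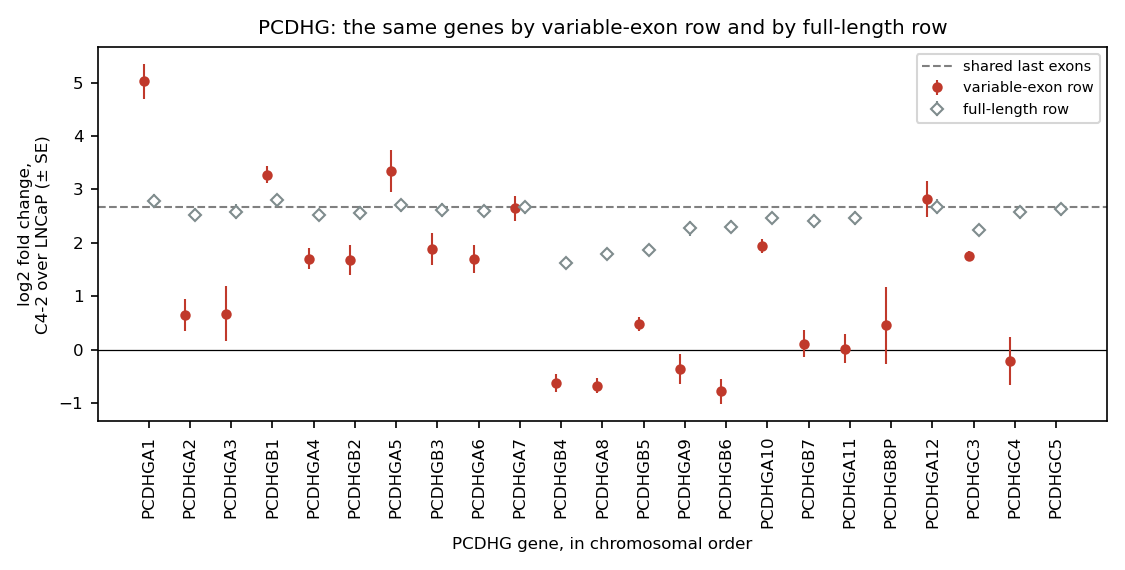
Log2 fold change, C4-2 over LNCaP, with SE, of each PCDHG gene by its variable-exon row (red circles) and by its full-length row (open diamonds), in chromosomal order; the dashed line is the common last exons. The diamonds stay between 1.62 and 2.81, while the circles run between -0.78 (PCDHGB6, 0.22 with scaling to library totals) and 5.02 (PCDHGA1). PCDHGB8P has no full-length row and PCDHGC5 was not tested by its variable exon.

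The 5 largest rises were in PCDHGA1, PCDHGA5, PCDHGB1, PCDHGA12 and PCDHGA7. PCDHGA1, the first gene of the cluster, had 259 and 169 tags in C4-2, against 3 and 3 tags in LNCaP, a log2 fold change of 5.02 ± 0.33 (edgeR adjusted p = 2.26e-06). PCDHGA5 had 126 and 132 tags in C4-2, against 4 and 8 tags in LNCaP (3.35 ± 0.39). PCDHGB1 had 957 and 603 tags in C4-2, against 33 and 42 tags in LNCaP (3.27 ± 0.16, edgeR adjusted p = 4.99e-07). In each of these the C4-2 libraries lay above the LNCaP libraries without overlap. PCDHGA12 had 198 and 125 tags in C4-2, against 14 and 7 tags in LNCaP (2.83 ± 0.34, and 3.53 without LNCaP replicate 1). PCDHGA7 had 220 and 190 tags in C4-2, against 14 and 17 tags in LNCaP (2.64 ± 0.24). Both are A-type genes with at most 17 tags in a LNCaP library.

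The other 7 genes that rose had log2 fold changes below 2. PCDHGC3, a C-type gene whose mouse counterpart binds the scaffold protein AXIN1, had 1635 and 1224 tags in C4-2, against 189 and 207 tags in LNCaP. Its level was 10.3 ± 0.146 CPM in C4-2 and 3.03 ± 0.157 CPM in LNCaP (SD, n = 2 each), a log2 fold change of 1.76 ± 0.09 (edgeR adjusted p = 6.99e-07). PCDHGA10 had 756 and 577 tags in C4-2, against 72 and 92 tags in LNCaP (1.94 ± 0.13). These were among the highest PCDHG levels in C4-2. PCDHGB3 stood at 1.88 ± 0.30, PCDHGA4 at 1.71 ± 0.20, PCDHGA6 at 1.70 ± 0.25 and PCDHGB2 at 1.69 ± 0.28 in log2 fold change. PCDHGB5, with 694 and 450 tags in C4-2 and 161 and 224 tags in LNCaP, had the smallest rise that passed, 0.48 ± 0.13 (edgeR adjusted p = 0.00971), and it was lost without C4-2 replicate 1 (adjusted p = 0.0605).

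The 3 PCDHG genes that fell with TMM scaling lie close together in the middle of the cluster. With scaling to library totals, all 3 had positive log2 fold changes: 0.37 for PCDHGB4, 0.33 for PCDHGA8 and 0.22 for PCDHGB6. By that scaling PCDHGB4 was called as higher (edgeR adjusted p = 0.0454), while PCDHGA8 (0.108) and PCDHGB6 (0.495) did not pass. PCDHGB4 had 372 and 207 tags in C4-2, against 201 and 212 tags in LNCaP, or 2.04 ± 0.396 CPM in C4-2 and 3.17 ± 0.248 CPM in LNCaP (SD, n = 2 each; log2 fold change -0.63 ± 0.16, edgeR adjusted p = 0.00791). PCDHGA8 had 242 and 184 tags in C4-2, against 154 and 166 tags in LNCaP (-0.68 ± 0.14, edgeR adjusted p = 0.00234). PCDHGB6 had 76 and 50 tags in C4-2, against 51 and 50 tags in LNCaP (-0.78 ± 0.24, edgeR adjusted p = 0.0167). The last of these calls was lost with DESeq2 (adjusted p = 0.0910), without C4-2 replicate 2 (0.0752) and without LNCaP replicate 1 (0.0907). PCDHGB4, PCDHGA8 and PCDHGB5 together were the most abundant PCDHG variable exons in LNCaP besides PCDHGC3. They held 18.3% and 17.9%, 9.73% and 9.70%, and 14.4% and 18.6% of the cluster's summed RPKM there. In LNCaP the PCDHGB4 row also held 8694 and 11247 antisense tags and the PCDHGB5 row 8680 and 11541. These 2 rows have 469 of their 50-base stretches in common. The part of wrong-strand tags in their sense counts was not tested.

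The 7 genes that passed neither way ranged between -0.36 and 0.68 in log2 fold change. With scaling to library totals 6 of them were called as higher: PCDHGA2 at 1.65, PCDHGA3 at 1.68, PCDHGB7 at 1.12, PCDHGA11 at 1.03, PCDHGB8P at 1.43 and PCDHGA9 at 0.65. PCDHGA9 had 99 and 90 tags in C4-2, against 67 and 47 tags in LNCaP (-0.36 ± 0.28). PCDHGB7 had 108 and 82 tags in C4-2, against 46 and 36 tags in LNCaP (0.12 ± 0.26), and PCDHGA11 had 74 and 60 tags in C4-2, against 33 and 29 tags in LNCaP (0.02 ± 0.27). In these 3 the libraries of the lines overlapped. PCDHGA2 stood at 0.66 ± 0.30, PCDHGA3 at 0.68 ± 0.52 and the pseudogene PCDHGB8P at 0.46 ± 0.72. PCDHGC4, which in mice is needed for the survival of neurons, had 20 and 27 tags in C4-2, against 13 and 13 tags in LNCaP (-0.21 ± 0.45). PCDHGC5 had 16 and 17 tags in C4-2 and 6 and 6 tags in LNCaP and was not tested. PCDHGA2 passed without C4-2 replicate 2 (0.89, adjusted p = 0.0408), PCDHGA3 without LNCaP replicate 1 (1.86, 0.00956), and PCDHGA9, as lower, without LNCaP replicate 2 (-0.70, 0.0231).

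Gamma promoters carry at least 2 forms of the word around the core. GCGCCGCTG was found in 10 of 20 PCDHG genes with a window and in 1.28% of all windows, and GTCGCTGTT in another 6 and in 0.154% of all windows. Both words were chosen after looking at the promoters. The genes shown cover the range of changes, with the core in capitals in 40 bases of the plus strand (GRCh38.p14).
PCDHGA1, chr5:141330401-141330440: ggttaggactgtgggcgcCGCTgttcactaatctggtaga
PCDHGB1, chr5:141350023-141350062: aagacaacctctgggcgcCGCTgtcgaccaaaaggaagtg
PCDHGA10, chr5:141412929-141412968: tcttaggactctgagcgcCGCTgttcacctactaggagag
PCDHGB4, chr5:141387615-141387654: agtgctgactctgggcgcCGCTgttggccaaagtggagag
PCDHGA8, chr5:141392566-141392605: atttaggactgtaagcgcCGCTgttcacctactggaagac
PCDHGB6, chr5:141407922-141407961: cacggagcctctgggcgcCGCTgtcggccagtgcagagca
PCDHGA5, chr5:141364105-141364144: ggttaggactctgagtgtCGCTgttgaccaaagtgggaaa
The raised PCDHGA1, PCDHGB1 and PCDHGA10 hold the same word as PCDHGB4, PCDHGA8 and PCDHGB6, which were lower with TMM but not with library totals. A link between the word and these changes was not tested. PCDHGC3, with the highest C4-2 level, held neither word, although its window held CGCT.

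The common and variable exons of PCDHG were in different proportions in the lines. Per kilobase, the PCDHG common exons had 1157 and 803 tags in C4-2, against 76.9 and 66.1 in LNCaP. The variable exons summed over the cluster had 2632 and 1868 tags per kilobase in C4-2, against 455 and 491 in LNCaP. The common exons thus stood further below the summed variable exons in LNCaP than in C4-2. Every variable exon but the first lies within introns of transcripts that start upstream, so unspliced RNA also counts on it, and the LNCaP libraries have the lower share of tags on annotated exons (31.0% and 35.7%, against 67.7% and 69.4% in C4-2). The part of unspliced RNA in the variable-exon values was not tested. In PCDHA, the common exons had 164 and 129 tags per kilobase in C4-2, against 0.71 and 6.02 in LNCaP, and the summed variable exons had 231 and 158 in C4-2, against 4.24 and 4.71 in LNCaP. The PCDHA common exons were thus below the summed variable exons in both C4-2 libraries and LNCaP replicate 1, and above them in LNCaP replicate 2.

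**Figure D4:**
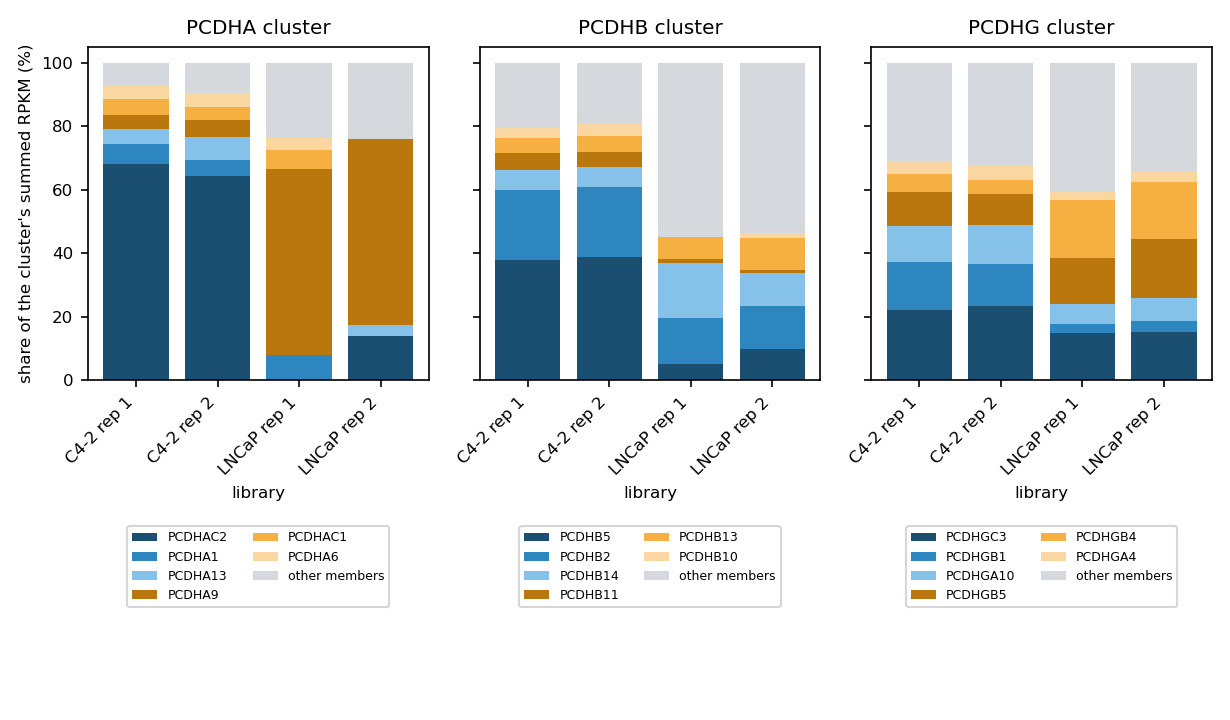
Share of each cluster's summed RPKM, in percent, held by the 6 members with the highest mean share in C4-2 and by all other members, for the 2 C4-2 libraries and then the 2 LNCaP libraries (variable-exon rows for PCDHA and PCDHG). PCDHAC2 holds 68.0% and 64.2% of PCDHA in C4-2, where PCDHB5 and PCDHB2 lead PCDHB, and PCDHG is spread over more genes in both lines. In LNCaP, 58.8% and 58.6% of PCDHA is the PCDHA9 row, which runs on into the intron.

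The replicates of a line shared the make-up of each cluster in C4-2. PCDHGC3 held 22.2% and 23.4% of the summed PCDHG RPKM in C4-2, against 14.9% and 15.1% in LNCaP. PCDHGB1 held 14.9% and 13.3% in C4-2, against 2.96% and 3.50% in LNCaP. PCDHGA10 held 11.2% and 12.1% in C4-2, against 6.22% and 7.33% in LNCaP. No single gamma gene reached 24% of the cluster in either line, unlike PCDHAC2 in the alpha cluster. The shares in LNCaP are imprecise for PCDHA and PCDHB, where most genes had under 30 tags, and RPKM was deposited to 3 decimals.

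Antisense tags were few over most members and very many over 2 of them. In 25 members no library had an antisense tag, and in another 25 no library had more than 10. PCDHGB4 had 16311 and 5479 antisense tags in C4-2, against 8694 and 11247 in LNCaP, far above its sense tags. PCDHGB5 had nearly the same numbers, 16353 and 5462 in C4-2, against 8680 and 11541 in LNCaP. The first 450 bases of the PCDHGB4 row (chr5:140767452-140767901 in hg19) are identical to the first 450 bases of the PCDHGB5 row (chr5:140777695-140778144), so the same reads may have been counted in both. Scaled by TMM, PCDHGB4 antisense tags were 102 and 46.5 CPM in C4-2, against 145 and 159 CPM in LNCaP. Per M tags of library total they were 67.7 and 31.9 in C4-2, against 45.8 and 56.9 in LNCaP, so the libraries of the lines overlapped by 1 scaling and not by the other, and no direction is drawn from them. With both strands counted, PCDHGB5 turned to -0.96 (edgeR adjusted p = 0.0176). The part of wrong-strand tags in the sense counts of PCDHGB4 and PCDHGB5, and so in their levels, shares and changes, was not tested. PCDHA9 had 131 and 79 antisense tags in C4-2, against 58 and 70 in LNCaP. PCDHB9 had 102 and 110 in C4-2, against 69 and 77 in LNCaP, where they exceeded its sense tags.

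Genes around the clusters moved in both directions. Of 21 other genes within 200 kb of or between the clusters, 18 were tested, 8 were higher and 6 were lower, with a median log2 fold change of -0.10, where 40.2% and 39.7% of all genes tested were called as higher and lower. TAF7, a single-exon gene for a subunit of the general transcription factor TFIID that lies between PCDHB and PCDHG, had 201 ± 2.31 CPM in C4-2 and 142 ± 3.74 CPM in LNCaP (SD, n = 2 each), a log2 fold change of 0.51 ± 0.04 (edgeR adjusted p = 1.24e-05). SLC25A2, also between them, had 9 and 4 tags in C4-2 and 0 and 4 tags in LNCaP and was not tested. On the PCDHA side, HARS1 stood at 1.11 ± 0.04, WDR55 at 1.10 ± 0.05, IK at 0.72 ± 0.04, ZMAT2 at 0.62 ± 0.04 and HARS2 at 0.52 ± 0.05, all higher, and MIR3655, which overlaps IK, at 0.77 ± 0.10. NDUFA2 was lower at -0.75 ± 0.06, VTRNA1-2 at -1.33 ± 0.39 and VTRNA1-3 at -0.43 ± 0.07. The VTRNA1-2 call was lost with the DESeq2 test (adjusted p = 0.118), with scaling to library totals (-0.34, adjusted p = 0.525), without C4-2 replicate 1 (adjusted p = 0.112) and without LNCaP replicate 2 (adjusted p = 0.0741). DND1 (-0.73 ± 0.31), TMCO6 (-0.19 ± 0.11) and VTRNA1-1 (-0.60 ± 0.39) did not pass.

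The far side of PCDHG held the opposite extreme. DIAPH1, a formin next to the PCDHG end, was higher at 0.36 ± 0.06, the deacetylase HDAC3 did not pass at -0.01 ± 0.05, and RELL2 was lower at -0.39 ± 0.09. FCHSD1 had 2 and 0 tags in C4-2, against 319 and 307 tags in LNCaP, a scaled ratio of 666-fold lower in C4-2 (exact 95% interval 184 to 5515). ARAP3 had no tag in either C4-2 library, against 146 and 180 tags in LNCaP, and was at least 231-fold lower in C4-2 by the limit of 3 tags over the group. With scaling to library totals HDAC3, NDUFA2, RELL2, TMCO6 and VTRNA1-3 turned positive, between 0.25 and 0.997.

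**Figure D5:**
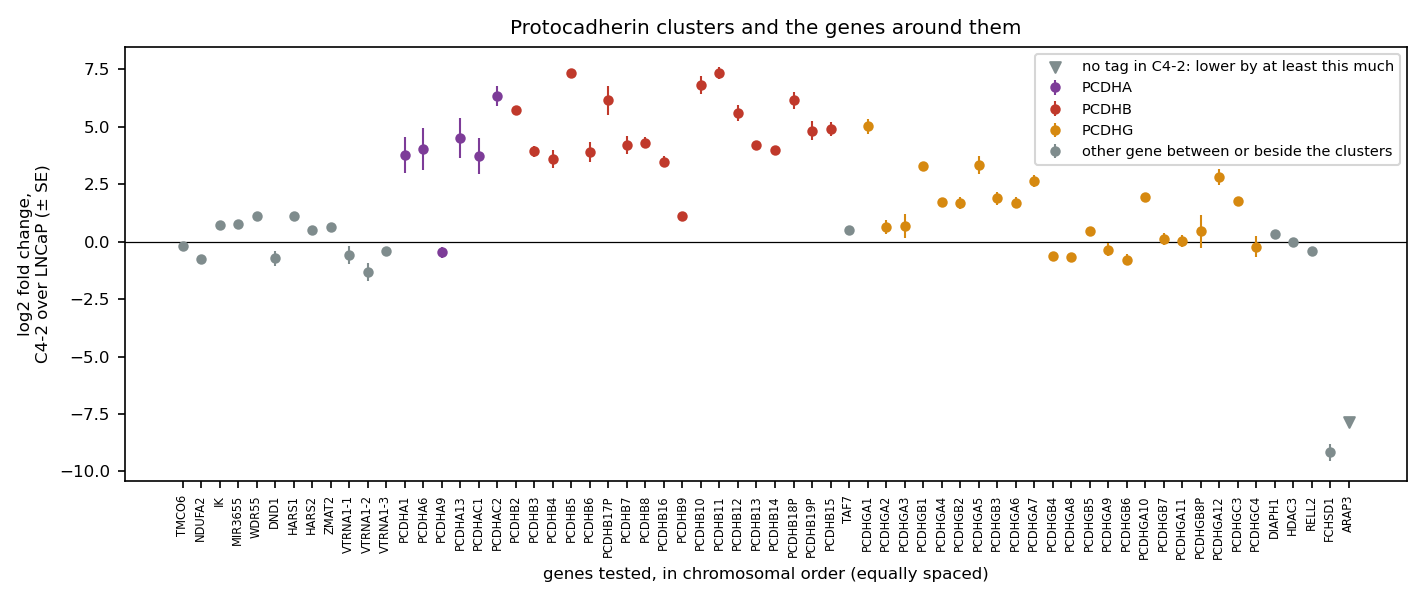
Log2 fold change, C4-2 over LNCaP, with SE, of all tested clustered protocadherins and of the other tested genes within 200 kb of the clusters, in chromosomal order with equal spacing; the triangle marks ARAP3, which had no tag in C4-2 and is drawn at its limit. PCDHB genes run between 1.13 and 7.36, genes before PCDHA stay between -1.33 and 1.11 with TMM scaling, and FCHSD1 and ARAP3 lie far below 0.

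Most protocadherins outside the clusters were too low to test. Of 12 examined, 5 were tested, 1 was higher and 2 were lower, with a median log2 fold change of 0.29, where 80.0% of all genes tested were called. PCDH1, which lies on chromosome 5 beyond the clusters, had 2788 and 2062 tags in C4-2, against 800 and 846 tags in LNCaP (0.46 ± 0.07). PCDH7 had 17 and 8 tags in C4-2, against 427 and 524 tags in LNCaP (-6.32 ± 0.19), and PCDH20 had 26 and 16 tags in C4-2, against 24 and 25 tags in LNCaP (-1.31 ± 0.34). The PCDH20 call was lost with the DESeq2 test (adjusted p = 0.0635) and with scaling to library totals (-0.32, adjusted p = 0.495).

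Among 19 regulators of promoter choice and chromatin at the clusters, 12 were higher and 6 were lower, with a median log2 fold change of 0.33. UHRF1, which brings the maintenance DNA methyltransferase to hemimethylated DNA, had 114 ± 4.38 CPM in C4-2 and 24.8 ± 0.630 CPM in LNCaP (SD, n = 2 each; 2.20 ± 0.05). The cohesin subunit SMC1A was higher at 0.75 ± 0.05, and the cohesin-associated PDS5A at 0.86 ± 0.04, while the cohesin subunit STAG1 was lower at -0.70 ± 0.05 and turned to 0.31 with scaling to library totals. Among 20 genes of protocadherin signalling and processing, 11 were higher and 5 were lower (median 0.17). The gamma-secretase subunit PSEN2 stood at 1.34 ± 0.06, AXIN1 at 1.33 ± 0.06, and CYFIP2 and CYFIP1, subunits of the WAVE actin-regulatory complex, at 1.20 ± 0.06 and 1.15 ± 0.05. With TMM scaling, the 5 lower genes were FYN at -2.14 ± 0.15, NCK1 at -0.85 ± 0.05, NCSTN at -0.26 ± 0.06, and 2 other WAVE subunits. These were WASF1 at -0.72 ± 0.12 and ABI1 at -0.62 ± 0.05. The shares called in these lists are set against 80.0% of all genes, and no conclusion follows from them.

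Markers of cells that use clustered protocadherins were also examined. The 13 neuronal and neuroendocrine markers summed to 107 and 105 CPM in C4-2, against 44.2 and 40.0 CPM in LNCaP. Of 6 tested, TUBB3 (2.81 ± 0.06), NEFL (3.50 ± 0.20) and ENO2 (1.84 ± 0.07) were higher and MAP2 was lower (-0.84 ± 0.09, but 0.17 with scaling to library totals), while CHGB and STMN2 had no tag in any library. The 9 fibroblast and mesenchymal markers summed to 84.5 and 79.5 CPM in C4-2, against 19.2 and 22.6 CPM in LNCaP. Most of the C4-2 sums was VIM alone, at 77.6 and 72.5 CPM, against 10.2 and 11.4 CPM in LNCaP. VIM (2.79 ± 0.07) and COL3A1 (1.35 ± 0.19) were higher and COL1A1 was lower (-1.48 ± 0.12). PDGFRB did not pass (-0.11 ± 0.19), and 5 were not tested, among them COL1A2, which had no tag in any library. The 10 immune and endothelial markers summed to 6.04 and 5.65 CPM in C4-2, against 7.91 and 7.94 CPM in LNCaP. Of 4 tested, LYZ (-0.97 ± 0.17), PECAM1 (-1.44 ± 0.54) and VWF (-0.29 ± 0.11) were lower, though LYZ stood at 0.04 and VWF at 0.71 with scaling to library totals, and with the DESeq2 test PECAM1 (adjusted p = 0.135) and VWF (adjusted p = 0.130) did not pass. Leaving out C4-2 replicate 1, C4-2 replicate 2 or LNCaP replicate 1 also ended both of these calls. The part of these markers' cells in the protocadherin values was not tested.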

How the data were processed

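The deposited tables give, per RefSeq transcript row, a count of tags on each strand and RPKM values, which the authors made from rRNA-depleted total RNA libraries. TopHat2 2.0.6, Bowtie and hg19 are named in the submitters' processing notes; how multiply aligned reads were treated is not given in the sources used here. The named library kit is not stated to keep strand, yet 1.18% to 1.80% of tags lay on the opposite strand. RPKM values, as the authors deposited them, imply library totals of 241 and 172 M tags (C4-2) and 190 and 198 M tags (LNCaP). Accessions were named from RefSeq (38974 of 40304 matched), and rows without a name, 2.06% to 2.15% of sense tags, were left out.

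Sense counts were tested with edgeR 4.0.16 (R 4.3.3): filterByExpr, TMM and the quasi-likelihood test of C4-2 against LNCaP over all genes, with Benjamini-Hochberg adjustment and a threshold of 0.05. Each symbol was represented by its row with the highest share of tags, and in a second table PCDHA and PCDHG genes by the row without the common exons. Common-exon tags are the full-length minus the variable-exon row, as the median over genes, and PCDHA9 was kept out of that estimate. CPM used TMM-scaled library sizes. Ratios of few tags have exact (Clopper-Pearson) 95% intervals, and limits for a group without tags rest on 3 tags over the group; both cover counting error only. Depth gives precise values for most PCDHB and PCDHG genes in C4-2 and imprecise ones in LNCaP. DESeq2 1.42.0 served as an alternative test, beside other scalings, filters, strands and row sums and fits leaving out each library. Named genes are all members that passed the filter, all tested genes within 200 kb, and up to 4 genes of each list by smallest adjusted p. STMN2, CHGB, COL1A2, SLC25A2, PDGFRB, FYN, NCK1, NCSTN, WASF1 and ABI1 were named after their values were seen. Members and lists were chosen with earlier results of these data known. On simulated counts of 15797 genes for this comparison, 90% of 50 genes changed 1.5-fold, 96% of 50 changed 2-fold and 100% of those changed 4-fold or 16-fold were found, with 10 false calls. The changed genes of the simulation were all raised and came from genes above a lower limit of mean tags, and all genes had a common spread between libraries. These rates therefore do not carry over to members with few LNCaP tags. The replicates of a line were not duplicates: the chi-square per degree of freedom was 12.7 in C4-2 and 25.6 in LNCaP.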

Additional observations from a re-analysis of the deposited data

Results flagged for a closer look

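Antisense tags, which only the alternative with both strands counted, exceeded sense tags in every library for 3 members. PCDHGB4 had 16311 antisense tags in C4-2 replicate 1 and 5479 in C4-2 replicate 2, against 8694 in LNCaP replicate 1 and 11247 in LNCaP replicate 2. PCDHGB5 had 16353 and 5462 in the C4-2 libraries, against 8680 and 11541 in the LNCaP libraries. PCDHA9 had 131 and 79 in the C4-2 libraries, against 58 and 70 in the LNCaP libraries. The C4-2 replicates differed from each other more than the LNCaP replicates did for PCDHGB4 and PCDHGB5. All other PCDHG members together had 26 and 16 antisense tags in C4-2, against 3 and 6 in LNCaP.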

How the results depend on the processing

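Calls of PCDHB genes did not depend on any choice tried: 18 were higher under each of the 12 alternatives, also with a replicate block (18). Numbers shared between lines did not pair the libraries (correlation of deviations -0.032). With the replicate block, 12400 genes were called across the table, against 12775 without it, and the counts of members were as without it, 5 PCDHA and 15 PCDHG variable-exon rows and 15 and 22 full-length rows. Leaving out each library in turn gave 11645 to 12770 genes called, 18 to 18 PCDHB genes, 4 to 6 and 14 to 16 PCDHA and PCDHG variable-exon rows, and 15 to 15 and 22 to 22 full-length rows; the lone library of a line is then assumed to vary like the other line's. PCDHA variable-exon calls were 1 with a stricter filter (50 tags in 2 libraries), which leaves few such genes to test, and 15 with rows summed, which adds the common exons.

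Summing rows also turned PCDHA9 to 2.21, PCDHGB4 to 1.13, PCDHGA8 to 1.32, PCDHGA9 to 1.99, PCDHGB6 to 2.02 and PCDHGC4 to 2.49 in log2 fold change. PCDHA9 was 4.37 by its full-length row, chosen after seeing the data, as was the test of common exons. Library totals gave 86.8% of called genes as higher, and turned PCDHGB4 to 0.37, PCDHGA8 to 0.33, PCDHGA9 to 0.65, PCDHGB6 to 0.22, STAG1 to 0.31, MAP2 to 0.17, LYZ to 0.035, VWF to 0.71, HDAC3 to 0.997, NDUFA2 to 0.25, RELL2 to 0.61, TMCO6 to 0.80 and VTRNA1-3 to 0.58. Counting both strands turned PCDHGB5 to -0.96 by its variable exon and -0.73 by its full-length row, the full-length row of PCDHGB4 to -0.75 and DND1 to 0.31. Among single genes, 24 of these values reversed, 26 no longer passed, 19 newly passed, 1453 kept direction and side of the threshold, and 15 changed sign without passing in either case. Depth limits PCDHA most, where 9 of 15 genes were too low to test. In the main fit, PCDHB genes with few LNCaP tags could be tested only through C4-2.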
